A study of Mus musculus with 4 samples.

Results

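The 10 genes described here encode enzymes that remove superoxide, peroxides and oxidised thiols: the superoxide dismutases Sod1 and Sod2, catalase (Cat), the glutathione peroxidases Gpx1, Gpx3 and Gpx4, the peroxiredoxins Prdx1, Prdx4 and Prdx6, and the reductase Txnrd3. They were taken by name from the 18419 genes of the deposited table, and all 10 were found in it. The table holds RNA counts from single cells of dissociated testis, captured in droplets and read from the 3′ end (10x Genomics), of ICR mice, an outbred stock. In A0 the male mice received water only, in A10 alginate oligosaccharides (AOS, short sugar chains cut from a seaweed polymer) at 10 mg/kg, in B0 busulfan alone, and in BA10 busulfan and then AOS at 10 mg/kg. Per the study's methods, busulfan was injected once at 40 mg/kg into 3-week-old males. It is an alkylating drug that can destroy germ cells of the testis. By the same methods, AOS was given daily by mouth from the next day, and the cells of 6 mice were pooled for each library. The length of treatment is stated as 2 weeks in one place and as 5 weeks in another. Each group was 1 library, so no spread between mice can be had, no value carries an SD and no comparison below has a test. Intervals are exact 95% intervals that cover counting error only, and they cannot show whether other mice would differ.

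Superoxide leaks from mitochondria and from the cytochrome P450 enzymes of steroid synthesis, and superoxide dismutases turn it into hydrogen peroxide, Sod1 mainly in the cytosol and Sod2 in the mitochondrial matrix. Catalase breaks down hydrogen peroxide in peroxisomes, Gpx1 and Prdx1 do so mainly in the cytosol, Prdx4 works in the secretory pathway and Gpx3 is secreted. Gpx4 reduces peroxidised lipids in membranes and also forms part of the mitochondrial capsule of sperm, Prdx6 reduces phospholipid peroxides, and Txnrd3 is a thioredoxin and glutathione reductase known for its high level in testis.

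Of the 10 genes, 4 carry a codon for selenocysteine, the reactive residue of their proteins, and these codons are shown because they mark the members whose translation depends on selenium. In each, a TGA that would otherwise end translation is read as selenocysteine. The sequences below are 30 bases of the transcript (GENCODE M21, GRCm38, plus strand), 5′ to 3′, with that codon in capitals.
Gpx1, chr9:108339439-108339468: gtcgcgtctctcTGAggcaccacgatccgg
Gpx3, chr11:54907244-54907273: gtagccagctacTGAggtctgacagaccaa
Gpx4, chr10:80054725-80054754: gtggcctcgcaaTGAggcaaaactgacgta
Txnrd3, chr6:89674777-89674806: cagaaaggctgcTGAggctagccctgctgc
In Gpx1, Gpx3 and Gpx4 the codon lies in the body of the coding sequence, 154, 153 and 124 codons before the stop. In Txnrd3 only 1 codon separates it from the stop, so that selenocysteine is the last residue but one. The other 6 members have no such codon in the annotation. The 3 glutathione peroxidases differed in what follows. Among the 14 groups of a named cell class and library, Gpx4 was highest in spermatid-like cells of A0 and BA10. For most of those BA10 cells the name is unsure, as given below. Gpx1 and Gpx3 were highest in somatic cells of B0.

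The 4 libraries held 3778 to 9682 cells with 25323535 to 150812974 UMIs (unique molecular identifiers, 1 per captured transcript), and median UMIs per cell ranged from 4214 in B0 to 17989 in BA10. Each library began at a lower limit of its own, from 2985 UMIs per cell in B0 to 9013 in BA10, and 448 of the 4659 B0 cells reached the limit of BA10. Cell make-up differed as widely. Leydig-like cells were 63.1% of B0, 3.41% of BA10 and under 0.1% of A0 and A10, whereas spermatocyte-like (SPC-like) and spermatid-like (ST-like) cells together filled nearly all of A0 and A10. Transcripts of other cell types were counted in SPC-like cells of all 4 libraries. Prm1, the protamine of elongating spermatids, had a UMI in 100% of those of A0 and A10. Insl3, a hormone gene of Leydig cells, was seen in 65.0% of those of B0 and 60.4% of those of BA10. Such transcripts are called free RNA below, but doublets and misnamed cells were not told apart from it. Pairs of libraries shared 31 to 135 cell barcodes. In pooled libraries, fewer cells of a type and less RNA per cell cannot be told apart, so values within cell classes are given for the members after the pooled ones. Levels are UMIs per 1000000 UMIs of the library or class (CPM), log2 ratios have 1 CPM added to both sides, and 2-fold means a log2 ratio of at least 1 in size.

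**Figure D1:**
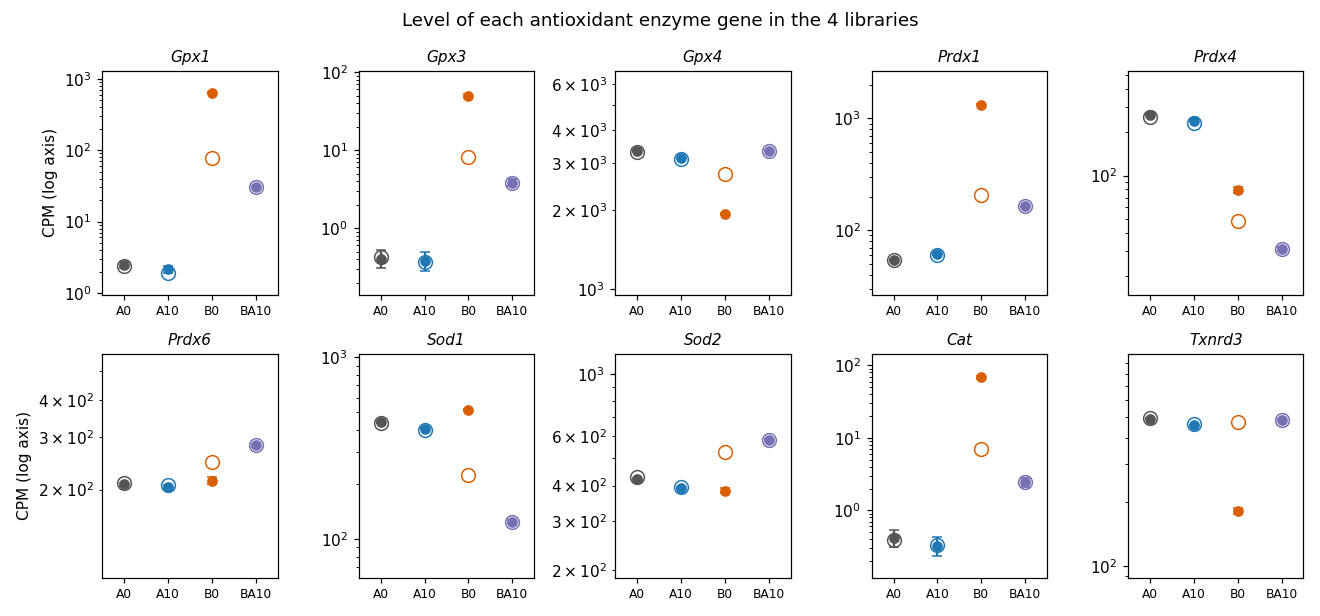
Level of each of the 10 genes (CPM, log axis, scaled separately per panel) in A0, A10, B0 and BA10. Filled points are all cells with exact 95% counting intervals, most of them smaller than the point, and open circles are the cells at or above 9013 UMIs. A0 and A10 lie close together in every panel. The distance of B0 from the others shrinks in the deeper cells for Gpx1, Gpx3, Gpx4, Prdx1, Cat and Txnrd3.

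AOS without busulfan left all 10 genes within 2-fold of the control. None of the 10 was 2-fold higher in A10 than in A0 and none 2-fold lower, in a background where 0.0446% of 6724 genes were 2-fold higher and 0.0595% were 2-fold lower. The background of each comparison holds the genes at 10 CPM or more in either side, which 7 of the 10 members reached here and all 10 reached in both pooled comparisons with B0. The median log2 ratio of the 10 members was -0.10, beside -0.03 over all genes. Prdx1, which removes hydrogen peroxide in the cytosol, was at 54.5 CPM in A0 and 61.1 CPM in A10, a log2 ratio of 0.16 (0.12 to 0.21). It was the only member with a higher level in A10. For the other 9 the log2 ratio lay between -0.14 and -0.03, and for Gpx1, Gpx3 and Cat the interval included 0. Those 3 genes were close to the limit of detection in both libraries: Gpx1 at 2.45 and 2.14 CPM, Gpx3 at 0.404 and 0.376 CPM, and Cat at 0.411 and 0.320 CPM.

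Most of the small differences between A10 and A0 had the same sign inside the germ cell classes. Gpx4, Prdx6, Sod1, Sod2 and Txnrd3 were lower in A10 in both SPC-like and ST-like cells, whereas Prdx4 had a log2 ratio of 0.09 (-0.01 to 0.18) in SPC-like and -0.12 (-0.14 to -0.10) in ST-like cells. In SPC-like cells (2885 in A0 and 3028 in A10) no member was 2-fold higher or lower, against 0.0301% and 0.0603% of all genes, and in ST-like cells (5761 and 6399) again none was, against 0.0654% and 0.0818%. Prdx1 was higher in A10 in both classes, by 0.13 (0.07 to 0.19) in SPC-like and 0.19 (0.12 to 0.26) in ST-like cells on the log2 scale. Across 14 germ clusters present in both libraries, Prdx1 was higher in A10 in 13 and Gpx4 was lower in A10 in 14. Txnrd3 was lower in A10 in 13 of the 14 and Sod2 in 11. Counting intervals of A0 and A10 were apart in 11 clusters for Gpx4, 9 for Txnrd3, 8 for Sod2 and 2 for Prdx1. Those counts depend on UMI number (505848 for Gpx4 and 8216 for Prdx1 in A0), and no share over all genes is given. The median log2 ratio over the 14 clusters was -0.06 for Gpx4, -0.13 for Txnrd3, -0.11 for Sod2 and 0.15 for Prdx1. Over all genes the median was -0.03 in SPC-like and -0.04 in ST-like cells, where Prdx6 was also at -0.04. CPM is relative to the total, and Prm1 alone went from 12309 CPM in A0 to 16635 CPM in A10. Its part in the lower values of the other genes was not tested.

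After busulfan alone the 10 genes split into 3 sets. Gpx1, Gpx3, Prdx1 and Cat were 2-fold or more higher in B0 than in A0, and Prdx4 and Txnrd3 were 2-fold or more lower. Gpx4, Prdx6, Sod1 and Sod2 stayed within 2-fold. These were 4 and 2 of 10 members, in a background where 42.8% of 10056 genes were 2-fold higher and 22.7% 2-fold lower, so the members' shares were near those of all genes. The median of all genes was itself at 0.51 on the log2 scale in this comparison, at -0.38 for BA10 over B0 and at 0.34 for BA10 over A0, whereas the member median for B0 over A0 was 0.13.

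Gpx1 was at 2.45 CPM in A0, 2.14 CPM in A10, 636 CPM in B0 and 30.5 CPM in BA10. B0 thus stood far above the other libraries and BA10 stood between, and the log2 ratio of B0 over A0 was 7.53 (7.42 to 7.63). Gpx3, the secreted peroxidase, had the same order with 0.404, 0.376, 49.1 and 3.82 CPM (A0, A10, B0 and BA10), and a log2 ratio of 5.16 (5.03 to 5.27). Cat was at 0.411, 0.320, 68.6 and 2.43 CPM, which gave 5.62 (5.50 to 5.74). For these 3 genes the level of A0 rests on few UMIs, 370 for Gpx1, 61 for Gpx3 and 62 for Cat. Prdx1 went from 54.5 and 61.1 CPM in A0 and A10 to 1318 CPM in B0 and 164 CPM in BA10, a log2 ratio of B0 over A0 of 4.57 (4.54 to 4.61). Among cells above 9013 UMIs these ratios were smaller, at 4.54 for Gpx1, 2.69 for Gpx3, 2.53 for Cat and 1.92 for Prdx1, where 16.1% of 7949 genes were 2-fold higher. Gpx3 and Cat were below the 10 CPM of that background, at 8.16 and 7.0 CPM in those B0 cells.

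The 2 lower members are abundant in germ cells. Prdx4, the peroxiredoxin of the secretory pathway, was at 266 CPM in A0, 241 CPM in A10, 79.3 CPM in B0 and 30.7 CPM in BA10. It was the only member whose level was lower in BA10 than in B0 while also lower in B0 than in A0, and its log2 ratio of B0 over A0 was -1.74 (-1.80 to -1.67). Txnrd3 was at 491, 458, 181 and 484 CPM (A0, A10, B0 and BA10), so that only B0 stood apart, at -1.43 (-1.47 to -1.39) over A0. That gap was not there among deep cells: above 9013 UMIs, Txnrd3 was at 497 CPM in A0 and 473 CPM in B0, a log2 ratio of -0.07. Of the 448 B0 cells above that limit, 361 were unnamed and 20 Leydig-like, so depth and cell mix cannot be told apart.

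Of the members within 2-fold, Gpx4 was at 3354, 3145, 1927 and 3347 CPM in A0, A10, B0 and BA10, with a log2 ratio of B0 over A0 of -0.80 (-0.81 to -0.79). After subtracting the median of all genes it was past 2-fold, at -1.31. Among cells above 9013 UMIs it was smaller, at -0.28. Without Leydig-like and macrophage-like cells, a comparison given below, it was -0.54. Prdx6 was nearly level in A0, A10 and B0, at 209, 204 and 214 CPM, and stood at 282 CPM in BA10. The superoxide dismutases pointed apart. Sod1 was at 440, 405, 512 and 124 CPM, highest in B0 and lowest in BA10, and Sod2 was at 423, 393, 383 and 583 CPM, highest in BA10. The log2 ratio of B0 over A0 was 0.22 for Sod1, but it was -0.29 after subtracting the median of all genes and -0.96 in the cells above 9013 UMIs. For Sod2 it was -0.14 and became 0.29 in those deeper cells. No direction is therefore given for either dismutase after busulfan alone.

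**Figure D2:**
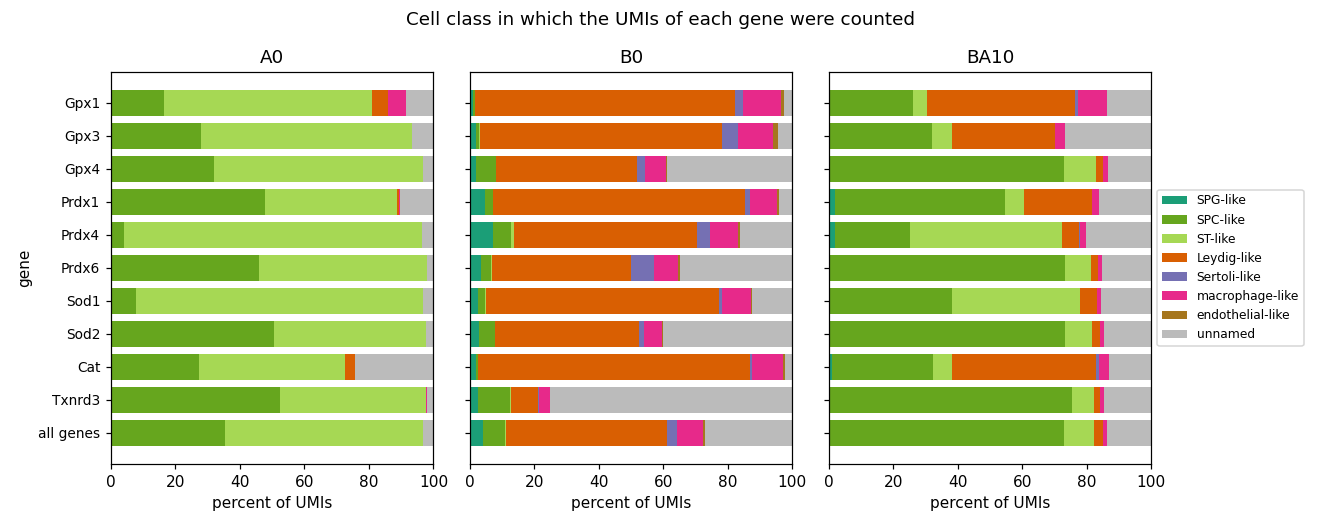
Percent of the UMIs of each member that were counted in each cell class, in A0, B0 and BA10. The last bar gives all genes of the library. In B0 most UMIs of Gpx1, Gpx3, Prdx1, Sod1 and Cat came from Leydig-like cells, whereas 75.2% of Txnrd3 UMIs came from cells left unnamed.

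The cells that carried the members differed between libraries. In B0, Leydig-like cells held 50.1% of all UMIs but 84.4% of the Cat UMIs, 80.7% of those of Gpx1, 78.2% of those of Prdx1, 75.2% of those of Gpx3 and 72.5% of those of Sod1. Their share was 43.1% to 44.6% for Gpx4, Prdx6 and Sod2 and only 8.47% for Txnrd3. In A0, where 61.2% of UMIs were in ST-like cells, those cells held 92.3% of the Prdx4 UMIs and 89.0% of the Sod1 UMIs. SPC-like cells held 52.5% of the Txnrd3 UMIs and 50.4% of the Sod2 UMIs of A0, above their 35.4% of all UMIs. In BA10 Leydig-like cells were 2.68% of UMIs and still carried 45.9% of the Gpx1 UMIs, 44.6% of the Cat UMIs and 32.1% of the Gpx3 UMIs. The 9 Leydig markers used to name the class summed to 27539 CPM in Leydig-like cells of B0 and to 3.74 CPM in SPC-like cells of A0.

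Leaving out Leydig-like and macrophage-like cells, a comparison added after the data were seen, did not remove the higher levels of Gpx1, Gpx3, Prdx1 and Cat in B0. Gpx1 was then at 116 CPM in B0 and 2.2 CPM in A0 (log2 ratio 5.19), Prdx1 at 421 and 54.1 CPM (2.94), Gpx3 at 16.2 and 0.405 CPM (3.61) and Cat at 9.87 and 0.398 CPM (2.96). Insl3 was still at 184 CPM in those B0 cells, against 0.564 CPM in A0, so transcripts of Leydig cells were still counted there. The B0 cells left also included 181 Sertoli-like and 56 endothelial-like cells, against 0 and 1 in A0. Those of B0 held 376 and 151 UMIs of Gpx1, and their part in the higher levels was not tested. Txnrd3 came to 381 CPM in B0 and 491 CPM in A0 and was no longer 2-fold lower, and Prdx4 stayed 2-fold lower at 65.5 and 266 CPM.

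Within B0, Leydig-like cells were compared with SPC-like cells. Of the 10, 5 were 2-fold higher in Leydig-like cells (Gpx1, Gpx3, Prdx1, Sod1 and Cat) and 1 was 2-fold lower (Txnrd3), beside 31.9% and 33.8% of 9572 genes. Together the share of members past 2-fold was near that of all genes. Gpx1 was at 1025 CPM in 2940 Leydig-like cells and 61.7 CPM in 206 SPC-like cells, a log2 ratio of 4.03 (3.76 to 4.31). Cat was at 116 and 5.09 CPM, a ratio of 4.26 (3.44 to 5.13) that rests on 9 UMIs in the SPC-like cells. Sod1 was at 741 CPM in the former and 145 CPM in the latter, and Prdx1 at 2059 and 454 CPM. Txnrd3 had the opposite order, 30.7 CPM in Leydig-like and 262 CPM in SPC-like cells, with a log2 ratio of -3.05 (-3.25 to -2.86). Gpx4 was at 1676 and 1710 CPM. The SPC-like level joins unlike clusters, 166 cells of cluster 22 and 38 cells of cluster 23. In cluster 22 alone Gpx4 was at 893 CPM, Prdx1 at 767 CPM and Sod1 at 249 CPM.

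**Figure D3:**
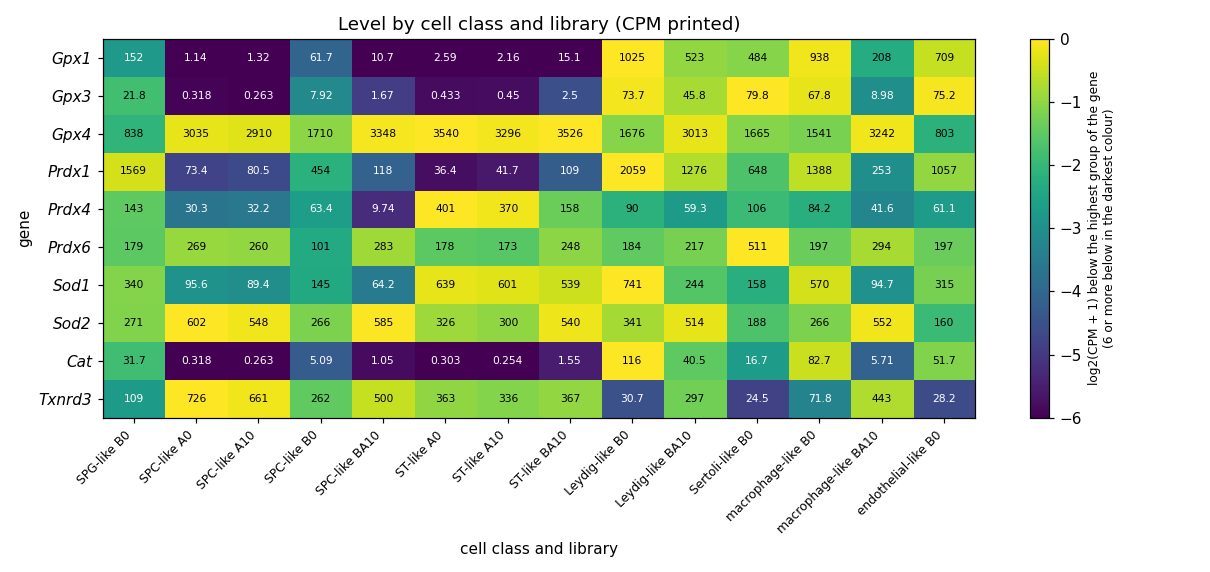
Level of each member (CPM printed in each field) in the 14 groups of a named class and library with at least 50 cells. Colour shows how far log2(CPM + 1) lies below the gene's highest group. Gpx1, Gpx3, Prdx1 and Cat are bright in somatic groups of B0 and dark in germ groups of A0 and A10, Txnrd3 has the reverse pattern, and Prdx4 is brightest in ST-like cells.

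Across the 14 groups of a named class and library, Gpx1, Prdx1, Sod1 and Cat were highest in Leydig-like cells of B0. Gpx3 and Prdx6 were highest in Sertoli-like cells of B0, at 79.8 and 511 CPM, which are the nurse cells of the tubule. For Gpx3 that peak was not clear of its neighbours: the intervals of endothelial-like (75.2 CPM) and Leydig-like cells of B0 (73.7 CPM) overlapped with it. For Prdx6 it was, since the next group, macrophage-like cells of BA10, stood at 294 CPM. Gpx4 and Prdx4 were highest in ST-like cells of A0, at 3540 and 401 CPM, though for Gpx4 the interval overlapped that of ST-like cells of BA10 (3526 CPM), and Sod2 and Txnrd3 in SPC-like cells of A0, at 602 and 726 CPM. Of the 13 neighbouring pairs in each gene's order, counting intervals overlapped in 1 for Prdx1, 3 for Gpx1, 4 for Txnrd3, 7 for Gpx4 and Sod1, 8 for Prdx6 and Sod2, 9 for Gpx3, 10 for Prdx4 and 11 for Cat. These counts depend on UMI number, which for Cat was only 7 in macrophage-like cells of BA10. No such count over all genes is given, so they do not rank how sharply the genes separate cell types.

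The spermatogonia-like cells of B0, 238 cells in 1 cluster, combined a high Prdx1 with a low Gpx4. Prdx1 was at 1569 CPM in them, the next level after Leydig-like cells of B0, and Prdx4 was at 143 CPM, with an interval (120 to 168) that overlapped only that of Sertoli-like cells (106 CPM) among the named B0 classes. Gpx4 was at 838 CPM (782 to 896), which overlapped endothelial-like cells (803 CPM) and SPC-like cluster 22 of B0 (893 CPM). Prdx1 was at 1057 CPM in those endothelial-like cells and at 767 CPM in cluster 22, where Prdx4 was at 115 CPM. The combination was thus not particular to the spermatogonia-like cells. Txnrd3 was at 109 CPM in the spermatogonia-like cells. Gpx1 stood at 152 CPM. Insl3 in these cells was 1.93% of its Leydig-like level, and Leydig RNA at that share would give 19.8 CPM of Gpx1 and 39.7 CPM of Prdx1.

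The macrophage-like cells cannot be read on their own. In B0, Insl3 reached 7851 CPM in 448 macrophage-like cells, 66.2% of its level in Leydig-like cells, although the 9 macrophage markers summed to 4975 CPM there. Leydig RNA at that share would give 98.2% of the Prdx1 level, 92.4% of the Cat level and 72.3% of the Gpx1 level measured in those cells. The share for Txnrd3 was 28.3%. In 61 macrophage-like cells of BA10, the 12 spermatocyte markers summed to 1707 CPM, near the 1963 CPM of the SPC-like cells of the same library, and Gpx4 (3242 CPM), Sod2 (552 CPM) and Txnrd3 (443 CPM) were likewise near their SPC-like levels of 3348, 585 and 500 CPM.

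Between spermatocytes and spermatids, Prdx4 and Sod1 had the largest differences among the members. In A0, Prdx4 and Sod1 were 2-fold higher in ST-like than in SPC-like cells and Txnrd3 was 2-fold lower, which makes 2 and 1 of 10 members beside 25.1% and 40.1% of 7538 genes. In A10 the same 2 genes were 2-fold higher and none was 2-fold lower, beside 24.5% and 39.4%. Gpx1, Gpx3 and Cat were below the 10 CPM of both backgrounds. With or without them, the share of members higher was near that of all genes and the share lower was smaller. Txnrd3 lay on the edge of 2-fold in both, with log2 ratios of -1.0 (-1.02 to -0.98) in A0 and -0.97 (-0.99 to -0.95) in A10. Prdx4 was at 30.3 CPM in SPC-like and 401 CPM in ST-like cells of A0, and at 32.2 and 370 CPM in A10, log2 ratios of 3.69 (3.62 to 3.76) and 3.48 (3.41 to 3.55). Sod1 was at 95.6 and 639 CPM in A0 and at 89.4 and 601 CPM in A10, log2 ratios of 2.73 and 2.74. Sod2 had the opposite order, 602 CPM in SPC-like and 326 CPM in ST-like cells of A0 and 548 and 300 CPM in A10. The median of all genes was itself at -0.71 in A0 and -0.68 in A10, near the Sod2 ratios of -0.88 and -0.87, and Sod2 in ST-like cluster 4 of A0 (612 CPM) was above that in SPC-like clusters 2 and 5 (522 and 322 CPM).

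**Figure D4:**
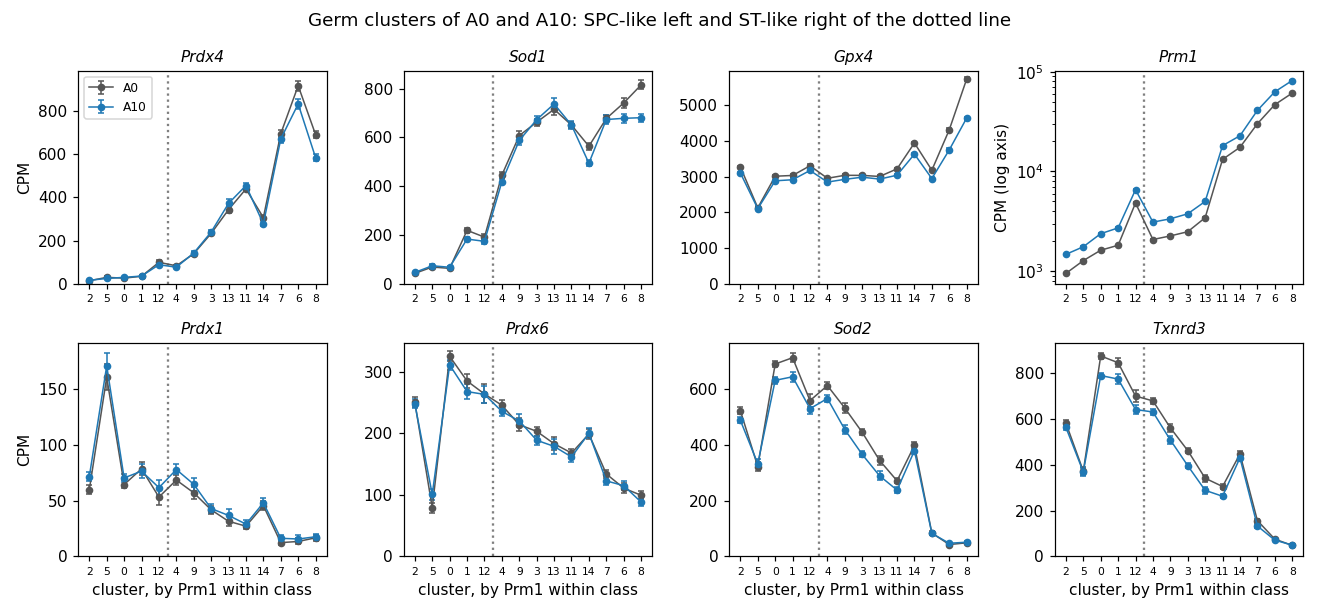
Level (CPM; log axis for Prm1 only) of 7 members and of Prm1 in 14 germ clusters of A0 and A10, ordered by Prm1 within SPC-like clusters (left of the dotted line) and ST-like clusters (right). Bars are exact 95% counting intervals. Prdx4 and Sod1 reach their highest values right of the line and Sod2 and Txnrd3 left of it, the step across the line is not clean (Prdx4 in A0 is at 99.2 CPM in cluster 12 and 83.2 CPM in cluster 4), and Gpx4 is lowest in cluster 5 and highest in cluster 8.

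Ordered by Prm1 within each class, the 14 germ clusters gave a finer picture. Prdx4 went from 14.1 CPM in SPC-like cluster 2 to 915 CPM in ST-like cluster 6 of A0, and from 16.3 to 831 CPM in A10. Sod1 was at 42.8 CPM in cluster 2, at 445 CPM in cluster 4, the ST-like cluster with the least Prm1, and at 815 CPM in cluster 8, which has the most. The name of cluster 4 is unsure, with a marker score of 0.274 for spermatids and 0.248 for spermatocytes. In cluster 4 Prdx4 was still at 83.2 CPM, so Sod1 was nearer to its peak there than Prdx4 was. In A10 Sod1 was highest in cluster 13 (737 CPM) and at 681 CPM in cluster 8. In the reverse direction, Txnrd3 was highest in SPC-like cluster 0 (876 CPM in A0 and 790 CPM in A10) and lowest in cluster 8 (47.8 and 48.7 CPM). Sod2 was highest in SPC-like cluster 1 (712 and 644 CPM) and lowest in cluster 6 (42.1 and 46.7 CPM).

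Prdx1 and Prdx6 split in cluster 5, an SPC-like cluster led by Tex101, Topbp1 and Gml2. Prdx1 had its highest level among the 14 clusters there, at 161 CPM in A0 and 171 CPM in A10, and was at no more than 78.5 CPM in the other 13. Cluster 10, which is not among the 14 because it stayed unnamed, is led by Prss50, Stra8 and Cenpa and held more Prdx1, at 183 CPM in A0 and 211 CPM in A10. In cluster 5 Prdx6 was at its lowest in A0 (79.0 CPM) and near its lowest in A10 (101 CPM), against 325 and 311 CPM in cluster 0. Gpx4 had its minimum in the same cluster, at 2126 and 2103 CPM, and its maximum in cluster 8, at 5730 and 4639 CPM. Between those clusters it stayed within 2848 and 4311 CPM. Gpx1, Gpx3 and Cat were at or under 6.12 CPM in every germ cluster of A0 and A10.

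The part of free spermatid RNA in the low end of the Prdx4 and Sod1 series was not tested, and the sums here are given as values only. In cluster 2 of A0, Prm1 was at 947 CPM, 1.55% of its level in cluster 8, and RNA of cluster 8 at that share would give 10.7 CPM of Prdx4, 75.9% of what was measured. The same sum gave 29.5% for Sod1, 2.71% for Gpx4, 0.430% for Prdx1 and 0.127% for Txnrd3. Over the 5 SPC-like clusters and both libraries it was 48.3% to 75.9% for Prdx4 and 11.1% to 34.1% for Sod1. For Txnrd3 and Sod2 it was at most 0.765%. These shares depend on the source chosen. Cluster 8 of A0 held little Txnrd3 (47.8 CPM) and Sod2 (48.3 CPM), so their low shares follow from that choice. ST-like cells of A0 as a class had Prm1 at 18390 CPM against 61090 CPM in cluster 8. Prdx4 was at 401 against 689 CPM and Sod1 at 639 against 815 CPM, so that source would give larger shares.

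When AOS followed busulfan, most members differed widely from B0 in the pooled libraries. Gpx1, Gpx3, Prdx1, Prdx4, Sod1 and Cat were 2-fold or more lower in BA10 than in B0 and Txnrd3 was 2-fold higher, 6 and 1 of 10 members beside 39.5% of 9720 genes lower and 18.8% higher. The pooled log2 ratios were -4.34 (-4.39 to -4.28) for Gpx1, -4.34 (-4.49 to -4.19) for Cat, -3.38 (-3.52 to -3.23) for Gpx3 and -3.0 (-3.03 to -2.97) for Prdx1. Sod1 was lower by 4.09-fold, with a log2 ratio of -2.03 (-2.068 to -1.995), and Prdx4 by 2.53-fold. Txnrd3 had a ratio of 1.41 (1.37 to 1.46), Gpx4 of 0.80 (0.78 to 0.81), Sod2 of 0.61 (0.57 to 0.64) and Prdx6 of 0.40 (0.36 to 0.44).

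These ratios moved with depth and with the mix of cells. Among cells above 9013 UMIs, 2 members were 2-fold lower (Gpx1 at -1.32 and Cat at -1.22) and none was 2-fold higher, beside 14.1% and 1.14% of 7688 genes at that limit. There Gpx3 (8.16 CPM in B0 and 3.82 CPM in BA10) and Cat (7.0 and 2.43 CPM) were below the 10 CPM of that background. Without them only Gpx1 was lower. Txnrd3 was at 0.03 (-0.02 to 0.08) there. Of the 448 cells that B0 has left above that limit, 361 were in clusters that stayed unnamed and 20 were Leydig-like. Treatment, depth and cell mix cannot be told apart in the pooled ratios. Without Leydig-like and macrophage-like cells, the log2 ratios were -2.93 for Gpx1, -2.26 for Gpx3, -2.23 for Cat, -1.67 for Prdx1, -1.11 for Prdx4, -0.90 for Sod1 and 0.36 for Txnrd3. Insl3 differed in the same direction in those remaining cells, with 184 CPM in B0 and 43.1 CPM in BA10. Sertoli-like and endothelial-like cells among them also differed, with 181 and 56 in B0 and 4 and 0 in BA10.

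**Figure D5:**
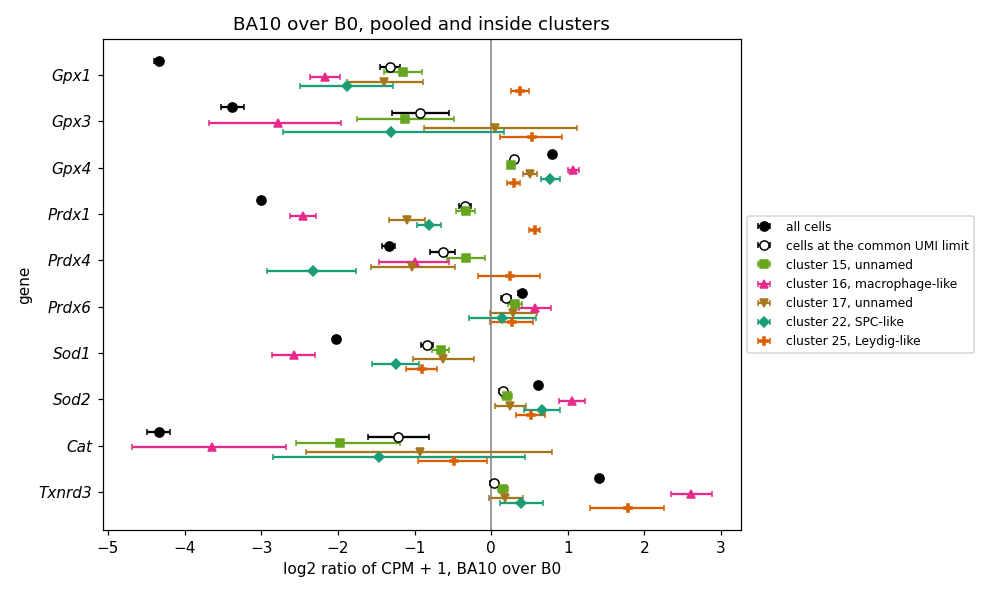
Log2 ratio of BA10 over B0 for each member, in all cells (filled circles), in cells at or above 9013 UMIs (open circles) and inside the 5 clusters that hold at least 40 cells of both libraries, with exact 95% counting intervals. Gpx4, Prdx6, Sod2 and Txnrd3 lie to the right of 0 in all 5 clusters, and Gpx1, Gpx3 and Prdx1 lie to the right only in Leydig-like cluster 25 or, for Gpx3, also in cluster 17.

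A second view, also added after the data were seen, compared BA10 with B0 inside the 5 clusters that held at least 40 cells of each. In Leydig-like cluster 25 (2910 cells of B0 and 49 of BA10) Gpx1 was at 1036 CPM in B0 and 1346 CPM in BA10, a log2 ratio of 0.38 (0.26 to 0.49). Prdx1 was at 2086 and 3096 CPM (0.57, 0.49 to 0.64) and Gpx3 at 75.1 and 109 CPM (0.53, 0.12 to 0.92). The 3 genes were thus higher in BA10 inside the cluster that carried most of them in B0 while their pooled levels were far lower. Sod1 did not turn: it was at 749 CPM in B0 and 400 CPM in BA10 in that cluster (-0.90, -1.11 to -0.70), and Cat was at 117 and 83.3 CPM (-0.49, -0.96 to -0.05). Genes of Leydig cells went both ways in that cluster: Insl3 was at 12021 CPM in B0 and 6195 CPM in BA10 and Star at 1324 and 1152 CPM, whereas Cyp11a1 was at 2954 and 4428 CPM, Cyp17a1 at 7260 and 8581 CPM and Hsd3b1 at 1357 and 1622 CPM.

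Outside cluster 25 the members kept the signs of the pooled ratios with few exceptions. Sod1 and Cat were lower in BA10 in 5 of 5 clusters, with log2 ratios from -2.58 to -0.63 for Sod1 and from -3.64 to -0.49 for Cat. Gpx1, Prdx1 and Prdx4 were lower in BA10 in 4 of 5, and Gpx3 in 3 of 5. Gpx4, Prdx6, Sod2 and Txnrd3 were higher in BA10 in 5 of 5, by 0.26 to 1.07, 0.14 to 0.58, 0.21 to 1.05 and 0.16 to 2.61. For these genes, Sod1 and Cat, the value farthest from 0 came from macrophage-like cluster 16, which cannot be read on its own. Intervals included 0 for Prdx6 in clusters 17, 22 and 25 and for Txnrd3 in cluster 17. They also did for Cat and Gpx3 in clusters 17 and 22 and for Prdx4 in cluster 25. In SPC-like cluster 22 (166 and 112 cells), led by Gml2, Gml and Meiob, Gpx4 was at 893 CPM in B0 and 1526 CPM in BA10 and Prdx4 at 115 and 22.02 CPM. Insl3 was lower in BA10 in all 5 clusters and Prm1 higher in all 5, and the part of free RNA in these ratios was not tested. Median UMIs per cell were 9573 to 17595 in BA10 and 3998 to 9820 in B0 in these clusters.

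Leydig-like cells as a class, which in BA10 are 49 cells of cluster 25 and 80 of cluster 18, gave other values. Gpx1 was at 523 CPM in BA10 and 1025 CPM in B0, Prdx1 at 1276 and 2059 CPM, and Txnrd3 at 297 and 30.7 CPM. Cluster 18, led by Serpina3a, Ptgds, Aqp2 and Gsta2, had a Leydig marker score of 0.284 and an SPC score of 0.192, so its name is less sure than that of cluster 25. It held 30 cells of B0, and in it Gpx1 was at 309 CPM in BA10 and 473 CPM in B0. The 12 spermatocyte markers summed to 1061 CPM in Leydig-like cells of BA10 and to 97.9 CPM in those of B0, so germ cell transcripts were counted in the former. Txnrd3 and Gpx4 have their highest levels in germ cells, and the part of that RNA in their higher Leydig-like levels was not tested.

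Against the control, BA10 had 4 members 2-fold higher (Gpx1, Gpx3, Prdx1 and Cat) and 2 members 2-fold lower (Prdx4 and Sod1), beside 15.2% and 20.2% of 7549 genes. Only 8 of the 10 members reached the 10 CPM of that background, since Gpx3 and Cat did not, and of those 8 members 2 were higher and 2 lower. The log2 ratio was 3.19 (3.07 to 3.31) for Gpx1, 1.78 (1.62 to 1.92) for Gpx3, 1.57 (1.53 to 1.61) for Prdx1 and 1.28 (1.11 to 1.43) for Cat. Prdx4 was at -3.07 (-3.13 to -3.02) and Sod1 at -1.81 (-1.84 to -1.78). Gpx4 and Txnrd3 were the members closest to the control, at -0.003 (-0.010 to 0.003) and -0.020 (-0.037 to -0.003). After subtracting the median of all genes they stood at -0.34 and -0.36, while Prdx6 (0.09) and Sod2 (0.12) were closest. Cat was then no longer past 2-fold, at 0.94. Cat was at 0.73 without Leydig-like and macrophage-like cells, and with 10 CPM added to both sides only 2 members were 2-fold higher. Among cells above 9013 UMIs the 6 genes past 2-fold were the same, with Gpx1 at 3.22 and Prdx4 at -3.02, beside 14.6% of 7550 genes higher and 20.2% lower.

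Inside the germ cell classes some of these differences were smaller and others larger. In SPC-like cells, 2 members were 2-fold higher in BA10 than in A0 (Gpx1 and Gpx3) and 1 was 2-fold lower (Prdx4), beside 1.79% and 9.58% of 6890 genes. Gpx3 and Cat were below the 10 CPM of that background, and without them only Gpx1 was higher. These calls were not firm: above 9013 UMIs 1 member was higher, with 10 CPM added to both sides none was, and Prdx4 came to -0.64 at the coarser clustering (resolution 0.5) and to -0.90 with 1000 variable genes. The SPC-like cells of A0 lay in clusters 0, 1, 2, 5 and 12 and those of BA10 in clusters 19, 22 and 23, so stage and treatment cannot be told apart. Prdx4 was at 30.3 CPM in A0 and 9.74 CPM in BA10, a log2 ratio of -1.54 (-1.67 to -1.42). Prm1, a spermatid gene, was at 1678 and 36.7 CPM in these cells, and the part of free spermatid RNA was not tested. Gpx1 was at 1.14 and 10.7 CPM, and Gpx3 at 0.318 and 1.67 CPM. Leydig RNA, at the 1.40% of its Leydig-like level that Insl3 had in SPC-like cells of BA10, would give 68.3% of that Gpx1 level, 53.8% of the Cat level and 38.4% of the Gpx3 level. It would give 15.1% of Prdx1 and at most 8.51% of any other member. These shares, and those for ST-like cells of BA10 below, depend on the Leydig source chosen. Gpx1 and Insl3 were at 523 and 2907 CPM in Leydig-like cells of BA10, the source used. They were at 1346 and 6195 CPM in cluster 25 of BA10 and at 1025 and 11860 CPM in Leydig-like cells of B0.

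In SPC-like cells, the level of B0, which joins unlike clusters, was set beside those of A0 and BA10. Gpx1 was at 1.14 CPM in A0, 61.7 CPM in B0 and 10.7 CPM in BA10, and Prdx1 at 73.4, 454 and 118 CPM. Gpx3 (0.318, 7.92 and 1.67 CPM) and Cat (0.318, 5.09 and 1.05 CPM) were also highest in B0, on few UMIs. Insl3 had the same order in these cells, with 0.486, 161 and 40.6 CPM, and its part was not tested. Gpx4 was lowest in B0, at 3035 CPM in A0, 1710 CPM in B0 and 3348 CPM in BA10, and so were Prdx6 (269, 101 and 283 CPM), Sod2 (602, 266 and 585 CPM) and Txnrd3 (726, 262 and 500 CPM). Prdx4 and Sod1 were at 63.4 and 145 CPM in B0, but their direction turned with depth. Their log2 ratios of B0 over A0 were 1.04 and 0.60 in all SPC-like cells and -1.01 and -0.85 in the 52 B0 cells above 9013 UMIs, so no direction is given for them. The 206 cells of B0 were mostly in cluster 22, which shares the leading genes Gml2, Gml, Tex101 and Maz with cluster 5 of A0. In cluster 5 of A0, Gpx4 was at 2126 CPM, Prdx6 at 79.0 CPM, Sod2 at 322 CPM and Txnrd3 at 372 CPM. In cluster 22 of B0 these 4 genes were at 893, 76.8, 220 and 172 CPM. In the 519 B0 cells of unnamed cluster 15 they were at 2820, 281, 577 and 508 CPM. Stage and treatment cannot be told apart.

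Sod2 and Prdx6 were nearly equal in SPC-like cells of A0 and BA10. Sod2 was at 602 CPM in A0 and 585 CPM in BA10, Prdx6 at 269 and 283 CPM, and Gpx4 at 3035 and 3348 CPM. Txnrd3 was lower in BA10, at 500 CPM against 726 CPM (-0.54, -0.56 to -0.52), and Gpx4 was higher by 0.14 on the log2 scale. Sod1 was at 64.2 against 95.6 CPM, a ratio of -0.57 that turned to 0.36 at resolution 0.5, and Sod2 likewise turned from -0.04 to 0.21. In ST-like cells, 388 of the 420 BA10 cells lay in cluster 21, which A0 hardly has, and its marker score for spermatids was close to that for spermatocytes. Gpx1 was at 15.1 CPM in ST-like cells of BA10 against 2.59 CPM in A0 (2.17 on the log2 scale), Gpx3 at 2.50 against 0.433 CPM (1.29) and Prdx1 at 109 against 36.4 CPM (1.56). Insl3 was at 54.5 CPM in these BA10 cells and 0.628 CPM in A0, and Leydig RNA at that level would give 64.8% of the Gpx1, 34.4% of the Gpx3 and 21.9% of the Prdx1 measured. Sod2 was at 540 against 326 CPM (0.73), Prdx4 at 158 against 401 CPM (-1.34), Sod1 at 539 against 639 CPM (-0.24) and Txnrd3 at 367 against 363 CPM (0.02). At resolution 0.5 the last 4 ratios were 0.14, -0.37, 0.028 and -0.59, so they depended on how the clusters were drawn. Prm1 was at 3077 CPM in ST-like cells of BA10 and 18390 CPM in those of A0, but at only 99.4 CPM in cluster 21, below the 1678 CPM of SPC-like cells of A0. Stage and treatment cannot be told apart here either.

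Shares of cells with a UMI told the same order for Gpx1, but they depend on depth. A Gpx1 UMI was seen in 3.62% (3.25 to 4.03) of A0 cells, 84.1% (83.0 to 85.1) of B0 cells and 30.5% (29.0 to 32.0) of BA10 cells. After thinning every cell to 5000 UMIs, which left out 3235 cells of B0 and none elsewhere, the shares were 1.32%, 62.1% and 11.3%. Insl3 as a measure of free Leydig RNA was seen in 19.4% of the SPC-like cells of BA10 after thinning and Gpx1 in 6.45% of them. Cat was seen in 0.682% of A0 cells, 29.4% of B0 cells and 4.95% of BA10 cells, and Gpx4 in at least 98.9% of the cells of every library.

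Of 50 further gene names of the same pathways, 47 were in the table: other glutathione peroxidases, peroxiredoxins, thioredoxins, glutaredoxins, glutathione enzymes, the Nrf2 regulator and its targets, selenoprotein factors and methionine sulfoxide reductases. The names not found were Gpx2, Txndc3 and Selenop. Txndc3 and Selenop are other names of Nme8 and Sepp1, which were found, so only Gpx2 was absent as a gene. For A10 over A0, 22 of them reached 10 CPM and none was 2-fold higher or lower. For B0 over A0, 27 of 44 were 2-fold higher and 6 were 2-fold lower, or 61.4% and 13.6% beside 42.8% and 22.7% of all genes, with a median log2 ratio of 2.12 beside 0.51. The 3 highest ratios were those of Sepp1, the selenium carrier of plasma (1.80 CPM in A0 and 685 CPM in B0, log2 ratio 7.94), Txn1, the cytosolic thioredoxin (2.79 and 442 CPM, 6.87), and Prdx3, the mitochondrial peroxiredoxin (1.30 and 169 CPM, 6.20). The 3 lowest were those of the sperm thioredoxins Txndc2 (239 and 18.7 CPM, -3.61) and Txndc8 (327 and 53.4 CPM, -2.59) and of Gpx6 (132 and 26.1 CPM, -2.29). Within classes, Sepp1 was at 1022 CPM, Txn1 at 709 CPM and Prdx3 at 278 CPM in Leydig-like cells of B0, and none was above 1.18 CPM in SPC-like cells of A0. Txndc2 (362 CPM), Txndc8 (482 CPM) and Gpx6 (195 CPM) were highest in ST-like cells among the named classes of A0. Among cells above 9013 UMIs, 10 of 31 were 2-fold higher and 3 lower, or 32.3% and 9.68% beside 16.1% and 11.7% of all genes, and Txndc8 (-0.998) and Gpx6 (-0.70) were no longer 2-fold lower.

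For BA10 over B0 the same list had 25 of 44 genes 2-fold lower and 3 higher, or 56.8% and 6.82% beside 39.5% and 18.8% of all genes, with a median of -1.47 beside -0.38. Sepp1 (-4.61), Nfe2l2, the gene of Nrf2 (90.9 CPM in B0 and 3.58 CPM in BA10, -4.33), and Prdx3 (-4.23) had the lowest ratios. Eefsec (1.61) and Sephs2 (1.42), which serve selenocysteine insertion and selenium activation, and Glrx3 (1.51) were the 3 that were higher, and among cells above 9013 UMIs none of the 3 was. At that limit 9 of 31 genes were 2-fold lower (29.0% beside 14.1% of all genes) and the list median was -0.13 beside -0.10, with Sepp1 at -1.56, Nfe2l2 at -1.82 and Prdx3 at -1.04. For BA10 over A0, 6 of 27 were 2-fold higher and 5 lower, or 22.2% and 18.5% beside 15.2% and 20.2% of all genes. Sepp1, Txn1 and Prdx2 were highest at 3.33, 2.79 and 2.13, and Txndc2, Srxn1 and Txndc8 lowest at -3.998, -3.57 and -2.31. Srxn1, which restores overoxidised peroxiredoxins, was at 54.4 CPM in A0 and 3.66 CPM in BA10. Like Prdx4 it belonged to ST-like cells, at 81.6 CPM in those of A0 and 7.11 CPM in SPC-like cells.

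Across the 14 groups of class and library, the members fell into patterns that are given as a description, since the groups share libraries, depth and free RNA. Gpx1, Gpx3, Prdx1 and Cat went together, with Pearson's r of 0.935 to 0.980 over log2(CPM + 1). Gpx4, Sod2 and Txnrd3 went together, with r of 0.77 for Gpx4 with each of the others, and Prdx4 went with Sod1 at 0.82. Among 13231 genes outside the members, those most like Gpx1 were Blvrb, Tspo and Vamp8 (r at least 0.995), those most like Gpx3 were Pla2g16, Lamb2 and Lrp10, and those most like Cat were Aebp1, Nudt8 and Pqbp1. The nearest to Prdx1 were Esd, Vkorc1 and Cuta, and the nearest to Txnrd3 were Ggnbp2, Tcp1 and Haus1. For Gpx4 they were Pebp1, Slc22a15 and Hapln2, for Sod2 Rtn3 and Samd10, for Prdx4 Dgcr2, Zfand6 and Kpna1, and for Sod1 Fam210a, Ntan1 and Zfp618. Prdx6 had no close partner: its best were Arpc1a (0.87), Reep2 (0.84) and Lrrk2 (0.84).

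The promoters of the members were searched for TGACNNNGC, the core of the element that Nrf2 binds, on both strands. RefSeq promoters (GRCm38.p6, 250 bases before to 50 after the start) were at hand for 9 of the 10 members, all but Prdx6, and 2 of the 9 held the motif, beside 14.0% of 27025 genes. Both matches read on the minus strand and are shown, in capitals, as the only matches among the members.
Prdx1, chr4:116685456-116685484: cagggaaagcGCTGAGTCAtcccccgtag
Sod1, chr16:90220696-90220724: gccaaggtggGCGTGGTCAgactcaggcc
The match starts 133 bases before the start in Prdx1 and 56 bases before it in Sod1. Gpx1, Gpx3 and Cat, whose levels followed Prdx1, did not hold these letters in that window.

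All 10 members matched 1 gene each in GENCODE M21. They lie on chromosomes 9 (Gpx1), 11 (Gpx3), 10 (Gpx4), 4 (Prdx1), X (Prdx4), 1 (Prdx6), 16 (Sod1), 17 (Sod2), 2 (Cat) and 6 (Txnrd3), and none is overlapped by another gene on its own strand. Prdx6 has a near copy, Prdx6b, in the table at 751 CPM in A0, 725 CPM in A10, 290 CPM in B0 and 868 CPM in BA10. Reads of the pair may have been split or dropped in counting, so levels of Prdx6 are uncertain.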

How the data were processed

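Testis cells of 4 libraries (A0, A10, B0 and BA10; 1 per group, 6 mice pooled in each) were analysed. Per the labels and the study's methods, the authors aligned reads to mm10 with Cell Ranger 2.2.0, kept cells with at least 200 genes and genes in at least 3 cells, scaled each cell to 10000 UMIs and deposited the natural log of the scaled value plus 1. From these values whole UMI counts were recovered (100% of values above 0 whole within 0.001). No mitochondrial gene was in the table.

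UMIs were summed per library, class or cluster with Python 3.11.15, numpy 2.4.6 and scipy 1.17.1. Ratios are log2 of CPM plus 1, with exact conditional Poisson intervals, and shares of cells have exact Clopper-Pearson intervals. All intervals cover counting error only. The background of each comparison is the genes at 10 CPM or more in either side, and called means at least 2-fold. Cells were clustered with scanpy 1.11.5 and igraph 0.11.9 on 2000 variable genes without the 57 members and related genes (values scaled and capped at 10, 30 components, 15 neighbours, Leiden resolution 1). A cluster was named where at least 3 markers of a class were seen in 10% of its cells and its 10 leading genes did not go against the name. Scaling and a list of stromal genes against a name were chosen after leading genes were seen. Doublets were kept: Scrublet, at an expected 6%, called 721 A0 cells, 838 A10 cells, 48 BA10 cells and 4 B0 cells (0.0859%), and whether it missed doublets in B0 was not tested. Classes needed at least 50 cells. Named genes of the wider list were the 3 with the highest and the 3 with the lowest ratios past 2-fold. The members and lists were chosen with earlier results of these data known. A gene that the rule on likeness would name is not reported here. Scripts were tested on simulated data. Alternatives were a common limit of 9013 UMIs, a pseudocount of 10 CPM, no filter on low genes, the median of all genes set to 0, the mean over cells, thinning to 5000 UMIs, no called doublets, resolution 0.5, 1000 variable genes and, added after the data were seen, no Leydig-like or macrophage-like cells.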

Additional observations from a re-analysis of the deposited data

Results flagged for a closer look

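For 5 members the pooled ratio of AOS over its own reference had opposite signs without and with busulfan. Each interval was clear of 0. The difference itself was not tested, and no share of all genes that meet this rule is given. Leydig-like cells were 63.1% of B0 and 3.41% of BA10, so treatment and cell mix cannot be told apart here. The log2 ratio of A10 over A0 minus that of BA10 over B0 was 3.16 for Prdx1, -0.89 for Gpx4, -0.43 for Prdx6, -0.71 for Sod2 and -1.51 for Txnrd3. In the pooled libraries Prdx1 was thus higher in A10 than in A0 and lower in BA10 than in B0, and the other 4 the reverse. Among cells above 9013 UMIs the ratios of BA10 over B0 were -0.34 for Prdx1, 0.29 for Gpx4, 0.19 for Prdx6, 0.15 for Sod2 and 0.03 for Txnrd3, whose interval then included 0. For Prdx6 the ratio of A10 over A0 was -0.03, as was the median of all genes. Inside Leydig-like cluster 25 Prdx1 was higher in BA10 than in B0, at 0.57.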

How the results depend on the processing

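Of 240 alternative values of the pooled member ratios, 105 moved by less than the counting interval, 129 moved by more and 6 were counted as turned in sign. Of 500 within classes, 365, 129 and 6 were. These counts do not cover every change of sign where the main interval included 0. Prdx6 in B0 over A0 went from 0.035 to -0.47 with the median of all genes set to 0. Gpx4 in BA10 over A0 went from -0.003 to 0.013 above 9013 UMIs. In cells above 9013 UMIs, B0 over A0 was -0.96 for Sod1 and 0.29 for Sod2, with 1 member 2-fold lower; BA10 over B0 had 0 members higher and 2 lower; SPC-like BA10 over A0 had 1 higher; ST-like over SPC-like in A0 had 0 lower; SPC-like B0 over A0 was -1.01 for Prdx4 and -0.85 for Sod1, and SPC-like BA10 over B0 was 0.30 for Sod1. There the wider list had, of 31 tested, 10 genes higher and 3 lower in B0 over A0 (16.1% and 11.7% of all genes), and 0 higher and 9 lower in BA10 over B0 (1.14% and 14.1%). Without Leydig-like and macrophage-like cells, chosen after seeing the data, B0 over A0 was -0.95 for Sod1 and 0.10 for Sod2, with 1 member lower, and BA10 over B0 had 0 higher. With the median of all genes set to 0, B0 over A0 was -0.29 for Sod1 and BA10 over B0 had 2 members higher. At that setting Gpx4 was 2-fold lower in B0 over A0, at -1.31, and Prdx4 was no longer 2-fold lower in BA10 over B0, at -0.96. As a mean over cells, Txnrd3 in BA10 over A0 was 0.046. With a pseudocount of 10 CPM, BA10 over A0 had 2 members higher, SPC-like BA10 over A0 had 0 higher, and ST-like over SPC-like in A0 had 0 lower. At resolution 0.5, SPC-like BA10 over A0 was 0.36 for Sod1 and 0.21 for Sod2 with 0 members lower, ST-like BA10 over A0 was 0.028 for Sod1, and ST-like over SPC-like in A10 had 1 lower. With 1000 variable genes, SPC-like BA10 over A0 had 0 members lower and ST-like over SPC-like in A10 had 1 lower. Without called doublets, ST-like over SPC-like had 2 lower in A0 and 1 in A10. The cause was not tested in any of these. No value could be had for SPC-like B0 over A0, SPC-like BA10 over B0 and Leydig-like over SPC-like in B0 at resolution 0.5, nor for Leydig-like BA10 over B0 and Leydig-like over SPC-like in B0 above 9013 UMIs. No paired analysis was possible because each group was 1 library, which also leaves no replicate to leave out.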
